A study of Homo sapiens with 6 samples.

Results

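The 7 lectin-like receptor genes described here lie in the natural killer (NK) gene complex and were measured in BCWM1, a human cell line grown from Waldenström macroglobulinemia, a lymphoma whose cells stand between B cell and plasma cell. They are CLEC2B, CLEC2D, CLECL1, CD69, KLRB1, CLEC7A and CLEC12A, out of 19775 genes that the array annotation gives as the only symbol of a probe set. Every probe set of these genes was taken, 19 of 54613. The genes were put together because CLEC2B and CLECL1 changed in opposite directions between mutated and parental cells, so the differences of the members between these groups are given as a description and were not tested.

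The 6 arrays hold 3 samples of mutated BCWM1 cells and 3 samples of parental BCWM1 cells, numbered 1 to 3 in each group. The series title names the change in the mutated cells as C1013G in CXCR4, the receptor of the chemokine CXCL12. The sources used here do not give how the mutated cells were made, whether they are 1 clone or whether the samples are separate cultures. The p-values below therefore cover the spread between these samples alone, and that spread may be technical. The design text sets mRNA levels of mutated cells against those of the parental line.

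The NK gene complex is a stretch of human chromosome 12 that encodes receptors with a C-type lectin-like domain. Many of them come as a ligand and a receptor that lie close together in the genome: CLEC2D (LLT1) is the ligand of KLRB1 (CD161), and CLEC2B (AICL) is the ligand of KLRF1 (NKp80), both receptors being typical of NK cells. CD69 belongs to the same CLEC2 group, appears early on activated lymphocytes and keeps the receptor S1PR1 off the cell surface. CLECL1 (DCAL-1) was described on B cells and dendritic cells, while CLEC7A (dectin-1, which binds fungal beta-glucan) and CLEC12A (an inhibitory receptor) are best known from myeloid cells.

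Values are the authors' deposited intensities, and differences are on the log2(intensity + 16) scale, mutated minus parental. Median intensity per array lay between 30.9 and 31.8 in mutated cells and between 28.5 and 29.1 in parental cells. The dimmest 40% of probe sets, those with a mean log2 value below the equivalent of an intensity of 18.0, were not tested. The 3 probe sets of CXCR4 were called lower in mutated cells, with log2 differences from −0.57 to −0.15. The B and plasma cell markers were all above this level (9 of 9 on the array), and their summed intensity was 33105 to 34564 in mutated cells and 37312 to 38576 in parental cells. Single markers went both ways. IGHM (means 6629 in mutated and 9118 in parental cells), POU2AF1, CD22, CD38 and SDC1 were lower in mutated cells. CD79B (1610 and 1032) and CD79A were higher, and MS4A1 and PAX5 overlapped between the groups. Of the T cell markers, 2 of 6 passed (CD2 and CD247), and CD3D, CD3E and CD3G were below it, with sums of 148 to 166 in mutated and 140 to 149 in parental cells. Of the monocyte and dendritic cell markers, 4 of 8 passed, CD14 and LYZ being below it, with sums of 103 to 127 in mutated and 131 to 153 in parental cells.

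CLEC2B was the member that was higher in mutated cells on both of its probe sets. On probe set 209732_at it read 575.6, 566.9 and 504.1 in the mutated samples, against 11.4, 8.85 and 8.61 in the parental samples. The groups were far apart, with parental cells at the level of the dimmest probe sets. The means were 549 ± 39.0 in mutated and 9.63 ± 1.57 in parental cells (SD, n = 3 each), a log2 difference of 4.46 (SE 0.074). The other probe set, 1556209_at, was dim on every array and read 20.1, 22.9 and 19.1 in mutated cells, against 1.93, 2.49 and 1.00 in parental cells. It lay below the filter and differed in the same direction, by 1.04 on the log2 scale. The size of this last value depends on the pseudocount, being 2.98 with a pseudocount of 1 and 0.36 with 64.

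CLEC2D, the ligand of KLRB1, had lower values in mutated cells on each of 4 probe sets. On the brightest, 233500_x_at, it read 136, 150.2 and 116 in mutated cells, against 953, 1000.5 and 992 in parental cells. Probe set 220132_s_at read 103, 92.8 and 78.7 in mutated cells, against 641, 645 and 619 in parental cells. On both, every mutated value was far below every parental value. Probe set 228426_at read 25.9, 24.7 and 15.2 in mutated cells, against 143, 159 and 138 in parental cells. Probe set 235522_at read 6.37, 6.75 and 10.3 in mutated cells, against 48.2, 55.6 and 58.6 in parental cells. The log2 differences of the 4 probe sets, in this order, were −2.74 (SE 0.089), −2.61 (SE 0.087), −2.11 (SE 0.12) and −1.56 (SE 0.087). Taken on the linear scale, the mutated mean was 13.7%, 14.4%, 14.9% and 14.4% of the parental mean on the same 4 probe sets. The 4 ratios thus lay close together, while the log2 differences shrank with the brightness of the probe set through the pseudocount: that of 235522_at was −2.67 with a pseudocount of 1 and −0.72 with 64, and that of 228426_at was −1.30 with 64. The suffixes _s_at and _x_at mark probe sets whose probes can bind several transcripts.

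The RefSeq promoter table (GRCh38.p14) held 3 of the 7 members, KLRB1, CLEC2D and CLEC12A. The stretch of 250 bases before the start of CLEC2D, the one of these 3 with probe sets past the filter, lies at chr12:9669463-9669712 on the plus strand and is shown with the motif matches in capitals.
CLEC2D upstream: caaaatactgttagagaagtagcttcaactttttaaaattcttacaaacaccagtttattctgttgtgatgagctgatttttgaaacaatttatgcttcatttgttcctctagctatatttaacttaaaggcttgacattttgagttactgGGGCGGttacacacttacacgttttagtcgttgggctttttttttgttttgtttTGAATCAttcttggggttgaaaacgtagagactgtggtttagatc
The 7 motifs searched on both strands were AP-1 (TGANTCA), the cAMP response element (TGACGTCA), the STAT site (TTCNNNGAA), the E-box (CACGTG), the GC box (GGGCGG), the TATA box (TATAAA) and the CCAAT box (CCAAT). The matches were 1 GC box, 99 bases before the start, and 1 match to the AP-1 pattern, 45 bases before it, and they did not overlap. The latter reads TGAATCA. The N of the pattern allowed any base, so this is a match to that loose pattern only. A GC box is found in 42.6% and the loose AP-1 pattern in 6.57% of the 35116 upstream windows of the table. The CLEC2D window was 33.6% G and C, against a median of 58.0% over all windows. These letters describe the window and say nothing about binding in these cells.

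CLECL1 was lower in mutated cells by its bright probe set and not by its dim one. On 244413_at it read 88.8, 99.96 and 92.8 in mutated cells, against 1055, 1151 and 1181 in parental cells. The means were 93.9 ± 5.64 in mutated and 1129 ± 65.8 in parental cells (SD, n = 3 each), a log2 difference of −3.38 (SE 0.066), and the mutated mean was 8.31% of the parental mean. Probe set 1561899_at pointed the other way, with 21.8, 10.1 and 19.98 in mutated cells, against 7.01, 3.60 and 5.93 in parental cells. It lay below the filter, its log2 difference was 0.62, and the groups did not overlap. This value ran from 0.22 with a pseudocount of 64 to 1.46 with a pseudocount of 1. The files do not say which transcripts of the gene either probe set reads.

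CD69 was bright on every array, with lower values in mutated cells. Its single probe set, 209795_at, read 1675, 1663 and 1997 in mutated cells, against 2161, 2277 and 2344 in parental cells. Mutated replicate 3 came closest to the parental values, and the groups did not overlap. The means were 1778 ± 190 in mutated and 2261 ± 92.9 in parental cells (SD, n = 3 each), a log2 difference of −0.35 (SE 0.084).

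KLRB1, the receptor that CLEC2D binds, was dim on its single probe set 214470_at, with 6.14, 7.45 and 9.75 in mutated cells and 12.7, 11.1 and 13.3 in parental cells. It lay below the filter, where no detection call was used, so these values do not show that the gene was expressed. The groups did not overlap, and the log2 difference was −0.26, or −0.62 with a pseudocount of 1 and −0.090 with 64.

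The members best known from myeloid cells were dim. CLEC7A had 6 probe sets, of which 2 passed the filter. On the brightest, 221698_s_at, it read 31.8, 41.9 and 29.7 in mutated cells, against 15.0, 13.7 and 17.3 in parental cells. Every mutated value was above the parental ones, and the log2 difference was 0.68 (SE 0.0996), or 1.11 with a pseudocount of 1 and 0.31 with 64. The next, 1554406_a_at, gave 16.5, 21.6 and 30.5 in mutated cells, against 8.67, 15.2 and 20.4 in parental cells, and the groups overlapped (0.34, SE 0.18). Of the other 4 CLEC7A probe sets, 1555756_a_at was higher without overlap (11.2 ± 3.05 in mutated and 2.91 ± 0.318 in parental cells; SD, n = 3 each) and the rest overlapped. CLEC12A stayed between 1.00 and 6.77 on every array over its 3 probe sets. Its 243106_at read 2.77, 1.00 and 1.25 in mutated cells, against 3.95, 4.92 and 6.77 in parental cells, and the other probe sets overlapped.

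**Figure D1:**
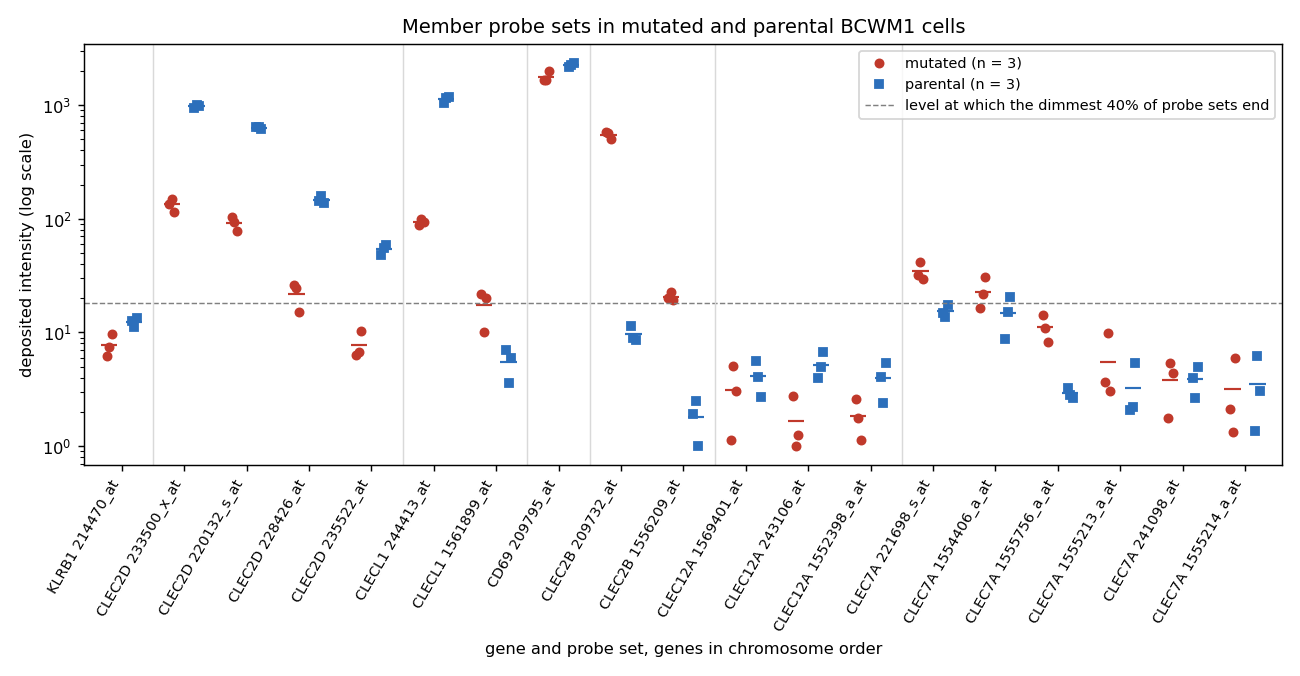
Deposited intensity (log axis) of the 19 member probe sets in each mutated (circles) and parental (squares) sample, with short lines for the means and the dashed line at 18.0, below which the dimmest 40% of probe sets were left out. CLEC2B stands out as higher, the 4 CLEC2D probe sets and the bright CLECL1 probe set as lower in mutated cells, and KLRB1 and CLEC12A lie below the dashed line in both groups.

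Over all 19 probe sets, 5 were higher and 8 lower in mutated cells without overlap of the groups, and 6 overlapped. Over all 54613 probe sets, 25.5% were higher and 15.6% lower by that rule. Of the 9 member probe sets past the filter, 2 were higher and 6 lower without overlap, where 36.3% of tested probe sets were higher and 21.4% lower. With each gene taken by its brightest probe set, 2 of the 7 members (CLEC2B and CLEC7A) were higher and 4 (KLRB1, CLEC2D, CLECL1 and CD69) lower, against 27.7% and 19.6% of 19775 genes. The members were chosen from this comparison, so nothing follows from these counts.

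The members were named as genes of 1 complex, so that they lie near each other is part of the choice. In the RefSeq gene table (GRCh38.p14, used here for order) they follow each other as KLRB1, CLEC2D, CLECL1, CD69, CLEC2B, CLEC12A and CLEC7A, within a stretch of 29 genes. A single gene lies between CLEC2D and CLECL1 and 1 between CLECL1 and CD69, and neither has a probe set with its symbol alone. Between CD69, which was lower, and CLEC2B, which was higher, lie 2 genes, and the one of them with a probe set is KLRF1. KLRF1 encodes the receptor that CLEC2B binds, and it fell. Its probe set read 19.9, 23.0 and 17.1 in mutated cells, against 71.9, 72.1 and 74.7 in parental cells, a log2 difference of −1.31 (SE 0.069; limma, Benjamini-Hochberg adjusted p = 2.2e-05). Ligand and receptor gene thus differed between the groups in opposite directions, but the direction of CLEC2B was part of the choice. KLRF1 was read by its only probe set, an _s_at one, with mutated values near the filter level. No detection call was used, so these values do not show that KLRF1 was expressed in mutated cells. Between KLRB1 and CLEC2D, the transcribed pseudogene LOC374443 fell as well, with 29.3, 32.9 and 34.0 in mutated cells, against 109, 115 and 110.4 in parental cells (log2 difference −1.41, SE 0.057; limma, Benjamini-Hochberg adjusted p = 6.8e-06). Its next probe set gave −0.81 (limma, adjusted p = 0.0012), and the remaining one, below the filter, overlapped between the groups. Whether its probes and those of CLEC2D bind each other's transcripts was not tested.

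KLRF1 and LOC374443 are not members, while the values of the members around them were part of the choice, so no pattern along the gene order is drawn from these. The ordered stretch ran over 69 genes, from the 20th before KLRB1 to the 20th after CLEC7A. Of its 48 genes that were neither members nor listed as other lectins, 10 had a probe set and 4 were tested. LOC374443 and KLRK1-AS1 fell, and A2M (0.12) and MIR1244-3 (−0.042) did not pass. The 48 include KLRC4-KLRK1, which carries the symbols of listed lectin genes and had no probe set. Whether LOC374443 or others of the 48 are lectin-like in sequence was not tested. KLRK1-AS1, an antisense RNA gene at KLRK1, read 166, 193 and 206 in mutated cells, against 516, 542 and 582 in parental cells (log2 difference −1.46, SE 0.087; limma, Benjamini-Hochberg adjusted p = 3.7e-05). Over all 13644 genes tested, 30.1% rose and 18.9% fell. Of the genes called, 61.5% were thus higher, a share of 49.4% with quantile normalization and 46.1% with median centring.

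**Figure D2:**
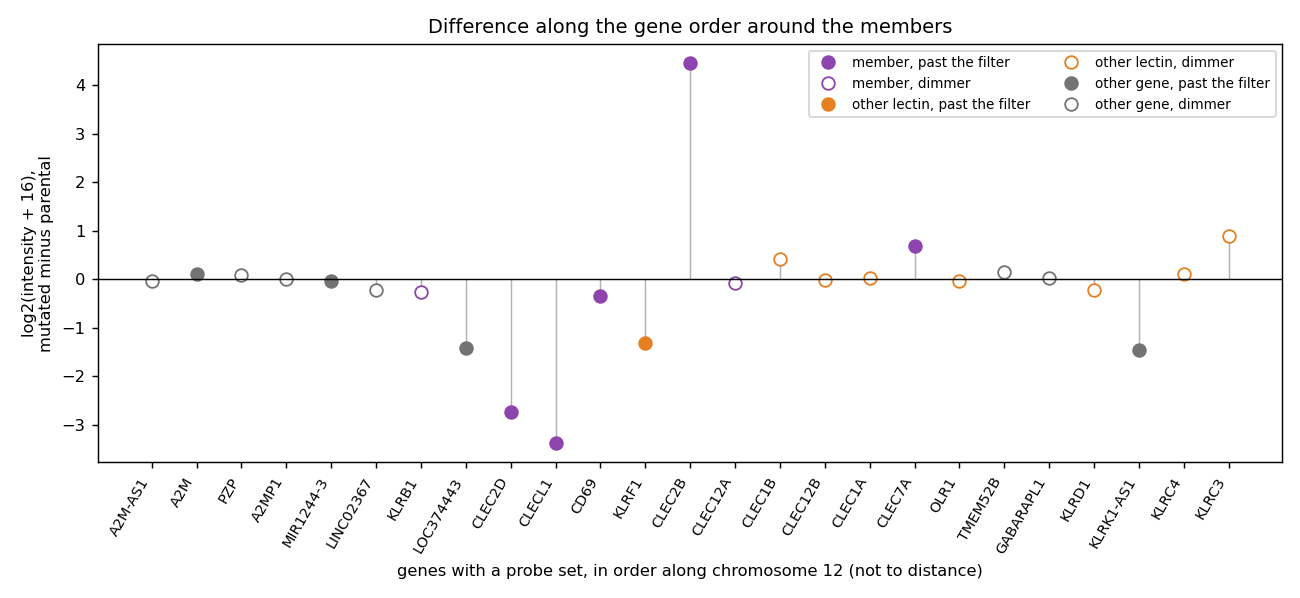
Log2 difference, mutated minus parental, of the genes with a probe set around the members, each by its brightest probe set and in their order along chromosome 12 (even spacing, not distance); purple marks members, orange other lectin genes, grey other genes, and open circles lie below the filter. The non-members KLRF1 and LOC374443 lie at −1.31 and −1.41, CLECL1 is at −3.38 and CLEC2B at 4.46; KLRB1 lies below the filter, and the dim CLECL1 probe set, which was higher, is not drawn.

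NK cell markers were examined beside KLRF1, since that gene is typical of NK cells. Of 7 on the array, 5 passed the filter, and GNLY and GZMB, which encode granule proteins of killer cells, were below it in both groups. Their summed intensity was 335 to 412 in mutated cells and 709 to 726 in parental cells. Most of that gap was in NCR3, which averaged 105 in mutated and 402 in parental cells. PRF1 averaged 82.2 in mutated and 131 in parental cells. The groups overlapped for NCR1 (95.5 in mutated and 102 in parental cells) and NKG7 (41.4 and 48.3). They also overlapped for NCAM1, whose mean was higher in mutated cells (34.8 and 23.7). The part of such markers in the KLRF1 difference was not tested. In bulk RNA, fewer cells with a transcript and less of it in each cell cannot be told apart.

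Of the 20 other lectin genes listed for the complex and its neighbour group on chromosome 12, 13 had a probe set of their own and 4 were tested. CLEC4C and CLEC4A rose (2 of 4), KLRF1 fell, and KLRG1 (−0.12) did not pass. The median log2 difference of the 4 was 0.20, against 0.038 over all 13644 genes tested. CLEC4C (BDCA-2), a receptor of plasmacytoid dendritic cells, read 180, 194 and 204 in mutated cells, against 11.3, 9.51 and 13.2 in parental cells, and the groups were far apart. The log2 difference was 2.93 (SE 0.073; limma, Benjamini-Hochberg adjusted p = 9.98e-07), and its other probe set gave 2.61. CLEC4A (DCIR), an inhibitory receptor, read 50.2, 56.1 and 54.9 in mutated cells, against 20.1, 36.8 and 43.3 in parental cells (0.53, SE 0.18; limma, adjusted p = 0.047). This call was lost in 8 alternatives, among them quantile normalization (adjusted p = 0.12), median centring (0.077) and leaving out mutated replicate 1, 2 or 3 or parental replicate 2 (0.074 to 0.11).

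Binding partners and signalling proteins of the members were mostly lower or not called: of 26 listed, 22 were tested, 2 rose (9.09%), 10 fell (45.5%) and 10 did not pass, where 30.1% of all genes tested rose and 18.9% fell. The median log2 difference was −0.17, against 0.038 over all genes tested. With quantile normalization 11 fell (median −0.17), and with median centring 12 (median −0.25). KLRF1, among those that fell, is also counted with the other lectins. S1PR1, the receptor that CD69 keeps off the cell surface, read 33.3, 42.8 and 38.3 in mutated cells, against 86.5, 94.9 and 94.6 in parental cells (log2 difference −0.999, SE 0.077; limma, Benjamini-Hochberg adjusted p = 1.2e-04). These are mRNA values, and a link to the lower CD69 mRNA was not tested. S100A9, a calcium-binding protein that pairs with S100A8 and was reported as a CD69 ligand, rose to 2734 ± 64.4 in mutated cells, against 674 ± 26.7 in parental cells (SD, n = 3 each; log2 difference 1.99). Its partner S100A8 was dim and did not pass (−0.30). LGALS1, galectin-1, another reported CD69 ligand, rose by 0.17 on the log2 scale (limma, adjusted p = 0.042), a call lost in 9 alternatives, among them median centring (0.25), the replicate number as a block (0.064) and leaving out mutated replicate 1, 2 or 3 or parental replicate 1 or 3 (0.067 to 0.12).

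Some genes were listed as signalling proteins of CLEC7A and CLEC12A, which were both dim here. A link of their changes to these receptors was not tested. PTPN6, the phosphatase SHP-1 that inhibitory lectin receptors recruit, fell to 1088 ± 20.6 in mutated cells, against 1524 ± 7.21 in parental cells (SD, n = 3 each; −0.48). REL, an NF-kB subunit, fell to 915 ± 38.0 in mutated cells, against 1497 ± 35.6 in parental cells (SD, n = 3 each; −0.70). Its other probe sets ran from −0.88 to −0.30. SYK, the kinase that dectin-1 signals through, was picked out after its values were seen. It did not pass on its brightest probe set (0.15, SE 0.057; limma, adjusted p = 0.064), while its other 3 gave 0.28, 0.29 and 0.34 with adjusted p of 0.0080, 0.015 and 0.045.

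CD69 is an activation marker, and a list of lymphocyte activation genes was set beside it. Of 23 listed, 19 were tested: 13 fell (68.4%), 2 rose (10.5%) and 4 did not pass, where 18.9% of all genes tested fell and 30.1% rose. The median log2 difference was −0.45, against 0.038 over all genes tested, and it was −0.47 with quantile normalization and −0.53 with median centring. CD83, a surface activation marker, fell to 1397 in mutated cells, against 2847 in parental cells (−1.02), and CD86, a costimulatory ligand, to 719 in mutated cells, against 1202 in parental cells (−0.73). The transcription factor gene EGR3 (−0.64) and the phosphatase gene DUSP2 (−0.59) fell too. The 2 that rose were TNFRSF9, the receptor 4-1BB (1.13), and NR4A2, a nuclear receptor of the early response (0.76). For these 6 genes the adjusted p (limma, Benjamini-Hochberg) lay between 1.2e-05 and 5.2e-04.

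C-type lectin genes outside this stretch of chromosome 12 included CD93, among the 3 that fell. Of 45 listed, 20 were tested, 2 rose, 3 fell and 15 did not pass, where 6961 of all 13644 genes tested did not pass. The 15% that fell lies near the 18.9% over all genes, and 10% rose, against 30.1% over all genes. The median log2 difference was 0.029, against 0.038 over all genes, and it was −0.039 with quantile normalization, −0.050 with median centring and −0.042 with no filter. CD93, a surface glycoprotein with a lectin-like domain, fell to 11.5 in mutated cells, against 785 in parental cells (−4.87; limma, Benjamini-Hochberg adjusted p = 4.4e-07). FCER2, the low-affinity IgE receptor CD23 of B cells, fell by 0.31 and VCAN, versican, by 0.42 on the log2 scale, while CD72, an inhibitory coreceptor of B cells, rose by 0.41 and ATRN, attractin, by 0.40. VCAN is given here by its brightest probe set. Its other probe sets past the filter fell too, by −0.46 and −0.81 (limma, adjusted p = 0.0017 and 4.9e-04). Those below the filter were not tested and gave 0.54, without overlap of the groups, and −0.12, with overlap. The call for VCAN (limma, adjusted p = 0.042) was lost in 6 alternatives, among them no filter (0.077) and leaving out mutated replicate 1 or 2 or parental replicate 2 or 3 (0.073 to 0.11), and that for ATRN (0.011) with quantile normalization (0.11).

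**Figure D3:**
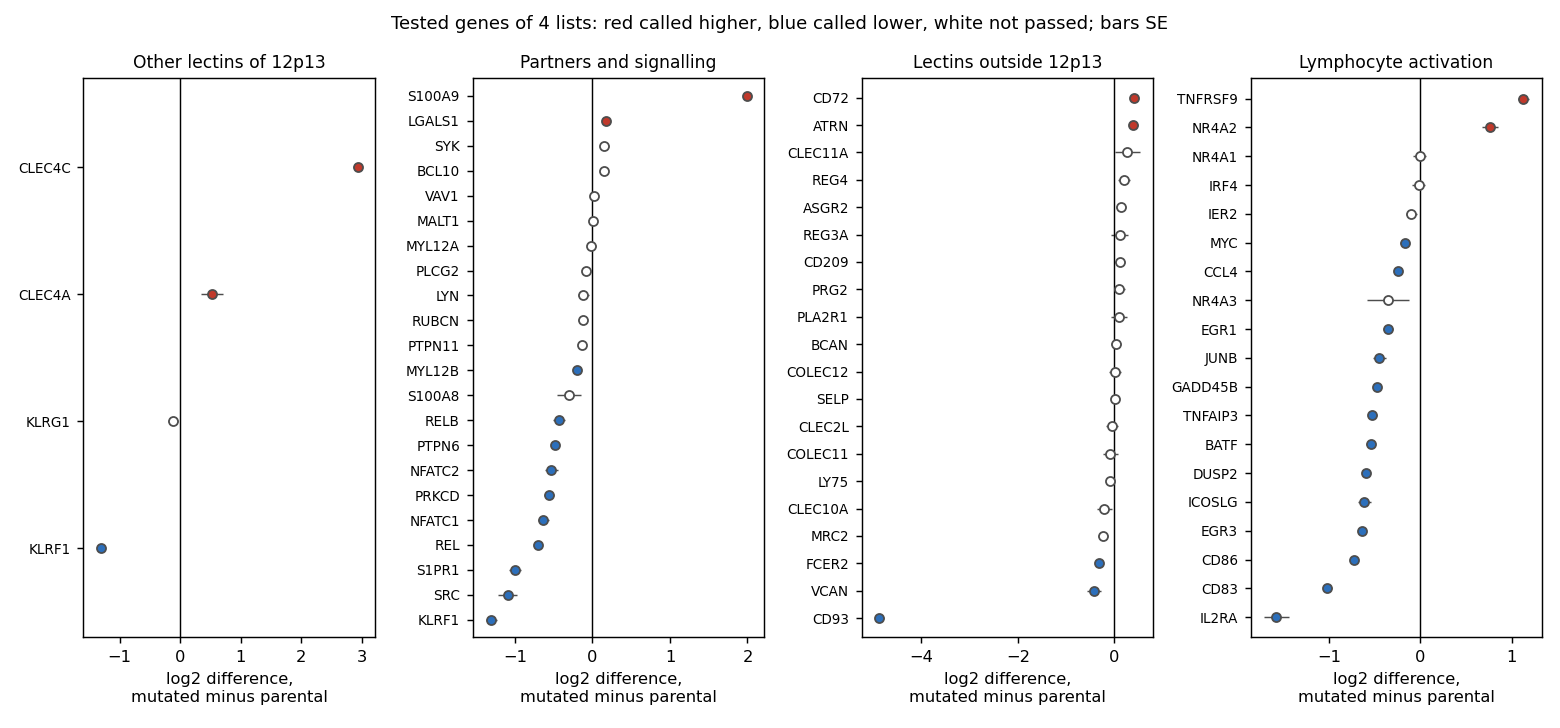
Log2 difference, mutated minus parental, of every tested gene of the lists of other lectins of 12p13, binding partners and signalling proteins, lectins outside 12p13 and lymphocyte activation genes; bars are the SE from limma. Red marks genes called higher, blue genes called lower and white genes that did not pass: 10 of 22 partners and 13 of 19 activation genes were called lower.

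Genes with the pattern most like that of CLEC2B and CLECL1 were found by the root mean square difference of log2 values over the 6 samples, each gene centred on its own mean. Nearest to CLEC2B were XIRP2 (0.093), GLUL (0.099), LAMP5 (0.11), FBXO16 (0.13) and SGMS2 (0.14). Of these, GLUL is glutamine synthetase and SGMS2 a sphingomyelin synthase. XIRP2 read 591, 563.5 and 544 in mutated cells, against 8.93, 10.99 and 10.8 in parental cells. Nearest to CLECL1 were RBPMS2 (0.050), EPAS1 (0.12), MAGEA12 (0.14), AHR (0.16) and ADGRL2 (0.17), EPAS1 being the hypoxia factor HIF-2alpha and AHR the aryl hydrocarbon receptor. RBPMS2 read 38.8, 44.6 and 40.9 in mutated cells, against 579.8, 625.5 and 666 in parental cells. With 2 groups of 3, the measure mainly finds genes with a group difference of the same size.

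**Figure D4:**
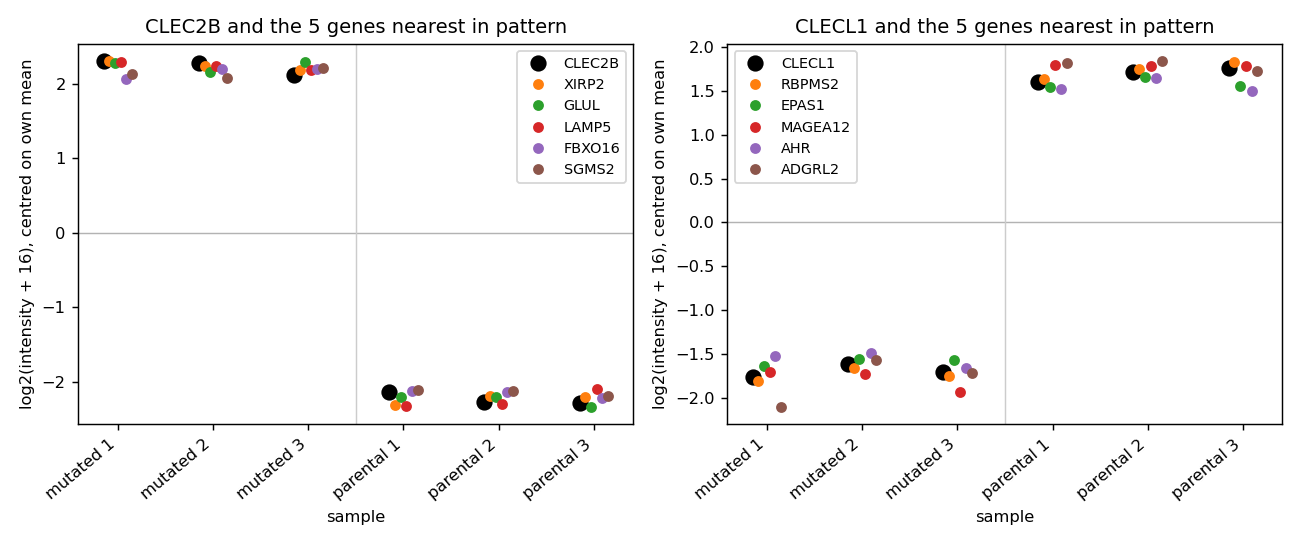
Log2(intensity + 16) of CLEC2B (left, black) and CLECL1 (right, black) with the 5 genes nearest in pattern, each centred on its own mean, in the 3 mutated and then the 3 parental samples. The genes near CLEC2B are above 0 in every mutated sample and those near CLECL1 below 0 there.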

How the data were processed

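RNA of 6 samples was measured on single-colour arrays after biotin labelling, per the labels. The deposited values are the authors' linear intensity for each of 54613 probe sets. For the summary method and normalization, the labels and the table state nothing, and no detection calls or raw scans were used. Between 2.01% and 2.36% of values per array were exactly 1. Values were turned into log2(deposited intensity + 16), and this pseudocount understates the change of dim genes. The dimmest 40% of probe sets by mean were left out, and 32768 were fitted with limma 3.58.1 in R 4.3.3 (lmFit, eBayes, two-sided, group as the only term), with Benjamini-Hochberg adjustment over all of them and a threshold of 0.05. Each gene is given by its brightest tested probe set, or by its brightest one where none was tested. Entrez IDs led 41037 of the 41091 probe sets that carry 1 symbol to a RefSeq gene (GRCh38.p14). The SE given for a member comes from the same fit.

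The members and lists were chosen with earlier results of these data known. Named genes were every member, CXCR4, up to 4 called genes of each list in each direction by adjusted p (up to 6 of the ordered neighbours), and the 5 genes nearest in pattern. Genes counted in a group of 5 or fewer, markers and SYK were named after their values were seen. In simulated data for this comparison, with 192 of 32768 probe sets shifted, the fit recovered 49.0% of shifts of 0.5 and 81.3% of shifts of 1. It called 6 unchanged probe sets. In the data far more was called, with 30.1% of genes tested higher and 18.9% lower. The Benjamini-Hochberg cutoff is stricter where few probe sets differ, so these rates do not give the share recovered in the data. The number of arrays limits the precision. Figures were drawn with matplotlib 3.10.9.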

Additional observations from a re-analysis of the deposited data

How the results depend on the processing

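With quantile normalization and with median centring, no member probe set whose groups did not overlap changed sign; most other settings could not change these signs. The members' counts moved by over 1.5 times in a single case: without the suffixes _s_at and _x_at, 1 member was higher in place of 2. That setting also gave 3255 probe sets called lower in all, 1 activation gene called higher, and, of the lectins outside 12p13, 1 called higher and 1 lower. Of the other lectins of 12p13, 1 in place of 2 was called higher with quantile normalization, with median centring, with the dimmest 60% left out and with a pseudocount of 1. KLRF1 was not among the genes tested without those suffixes or with the dimmest 60% left out, and limma then called 0 of 3 and 0 of 1 lower (0 at an unadjusted p under 0.05 in both). Of the lectins outside 12p13, 1 was called higher with quantile normalization. Of the binding partners and signalling proteins, 1 was called higher with median centring, no filter and a pseudocount of 1, and 4 with the dimmest 60% left out, a pseudocount of 64, trend and robust eBayes, the mean over probe sets and no suffixes _s_at or _x_at. The cause of these moves was not tested, beyond the smaller number of probe sets where some were left out. With 1 sample left out, the counts called higher were 1 to 3 for partners, 1 to 2 for other lectins of 12p13 and 2 to 3 for lectins outside it, of which 2 to 4 were called lower. Of called probe sets, 65.1% were higher; quantile normalization made this 49.97% and median centring 50.7%. For genes the shares were 61.5%, 49.4% and 46.1%.

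The labels do not say whether samples with the same replicate number share more than that number. Deviations of same-numbered samples correlated at 0.11, 0.027 and 0.11 across probe sets. Pairs with different numbers lay between −0.11 and 0.0028, so each sample correlated best with its own number. What the numbers stand for was not tested. With the replicate number as a block, 9685 probe sets were called higher and 5212 lower, against 10120 and 5433 without it, and 1 in place of 2 partners was called higher. No detection call was used, so for probe sets below the filter the values do not show whether signal stood above background.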

Other observations

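Below the filter lay 9 other lectin genes of 12p13, and they were examined after their values were seen. KLRC3, which encodes an NKG2 receptor chain of NK cells, averaged 23.8 in mutated and 5.17 in parental cells on its brightest probe set, and CLEC1B, the podoplanin receptor CLEC-2 of platelets, averaged 15.6 in mutated and 7.47 in parental cells. In both genes the groups did not overlap. OLR1, CLEC1A, CLEC12B, CLEC4D, CLEC4E, KLRD1 and KLRC4 overlapped between the groups on their brightest probe sets.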
